A study of Homo sapiens with 2 samples.

Results

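The high-scoring recurrent crosslink sites of Cas9 are the positions where a contact between Cas9 and RNA was called at exactly the same base, on the same strand, in both libraries and with a deposited score of 300 or more in at least 1 of them. The rule took 277 regions out of 2443 that were identical in both libraries. Replicate 1 listed 4204 regions in all and replicate 2 listed 5995. Of the identical regions, 306 (12.5%) reached the score threshold. A further 29 of these were left out because a region of the same file on the opposite strand faced them, with the minus-strand start 1 to 110 bases beyond the plus-strand start. For 18 of the 29 this held in both files. Over all regions, 4.95% of replicate 1 and 5.07% of replicate 2 scored 300 or more.

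Both libraries came from H1-iCas9, a line built on H1, an established line of human embryonic stem cells, in which doxycycline turns on Cas9. The cells of both libraries were given doxycycline at 1 µg/ml for 24 hours, irradiated with ultraviolet light of 254 nm at 300 mJ/cm2, and used for recovery of Cas9 with an antibody to its FLAG tag. They form 1 group, replicate 1 and replicate 2, and no label says whether they were separate cultures or whether a guide RNA was present. No library without Cas9 and no RNA measurement was analysed here, so a score cannot be set against the amount of RNA at a site, and the stem cell identity was not checked from these files.

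Cas9 is a bacterial nuclease that binds a guide RNA and uses it to find DNA. In irCLIP, ultraviolet light joins a protein to RNA that it touches, the complex is recovered with an antibody, and reverse transcription of the RNA tends to stop at the joined base. RNA is copied from 1 DNA strand, so the strand of a site relative to the gene around it is part of its description. Most of a long human gene is intron, and its RNA is found mainly in the nucleus before splicing.

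The deposited tables give positions and no bases, and a reference sequence was at hand only for windows around annotated transcript starts, from 250 bases before to 50 after. Of the 277 sites, 2 lay in such a window (0.722%, 95% interval 0.0876 to 2.58). Of the 1901 identical regions outside facing pairs that scored below 300 in both libraries, 12 did (0.631%, 0.327 to 1.10). Regions outside facing pairs found in replicate 1 only had 0.346% (0.127 to 0.751), and those in replicate 2 only 2.62% (2.08 to 3.27). The 2 high-scoring sites are printed from RefSeq on GRCh38.p14, 5′ to 3′ on the strand of the site. They are the sites whose surrounding bases could be read, and they do not stand for the others. The capital marks the crosslink base. The first is chr4:7939897-7939997 on the minus strand, 86 bases before a start of AFAP1 (an actin filament adaptor), with scores of 66.5 and 532 in replicates 1 and 2. Its crosslink base also lies in LOC389199, a long noncoding gene of 1296 bases on the plus strand, so against that gene. The second is chr13:43879363-43879392 on the plus strand, between divergent starts of LACC1 (an enzyme of purine metabolism in macrophages) and CCDC122, at the score ceiling in both libraries.
AFAP1 upstream site: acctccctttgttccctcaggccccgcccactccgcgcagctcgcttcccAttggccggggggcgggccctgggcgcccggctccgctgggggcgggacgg
LACC1 and CCDC122 site: agctgcctcctcgcgAccctttccggactc

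Both crosslink bases were A. In such windows A was the base at 1 of the 12 identical regions below 300 in both libraries. It was the base at 0 of 6 regions found in replicate 1 only and 18 of 77 found in replicate 2 only. With 2 sites, no preference for a base can be read. The 101 bases at AFAP1 were 78.2% G and C, against a median of 60.4% in the last 101 bases before all 35116 tabulated starts. Neither sequence held a run of T, searched as TTTTT, on either strand, nor a run of A, searched as AAAAA, nor the polyadenylation signal, searched as AATAAA. In windows of 101 bases before the starts, 16.1% held the run of T on 1 strand or the other, which is also the share for the run of A, its complement, and 5.80% held the signal. The Cas9 recognition letters, NGG after 20 bases, occurred at 18 positions on each strand of the AFAP1 sequence and at 1 position on each strand of the LACC1 sequence. They were found in 99.8% of the windows of 101 bases and in 68.1% of those of 30 bases, on either strand.

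The sites were chosen by these scores, which are given only as a description. In replicate 1 they ran from 9.53 to 815 with a median of 349, and in replicate 2 from 4.72 to 1093 with a median of 445. The 1901 lower-scoring identical regions outside facing pairs had medians of 30.7 and 35.5. A single crosslink base could not score above 708.396, which equals the natural log of the smallest normal double-precision number with its sign turned. At this ceiling, 53 sites stood in both libraries, 6 in replicate 1 alone and 33 in replicate 2 alone, while 185 lay below it in both. The order of sites at the ceiling therefore carries no information. Scores also took few values, 714 different ones to 1 decimal in the 4204 regions of replicate 1 and 1004 in the 5995 of replicate 2. The sources used here do not give the meaning of a step between these values, so a ratio of scores is no ratio of reads.

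Replicate 2 gave the higher score at 174 sites, replicate 1 at 51, and 52 were equal at the ceiling. Both libraries reached 300 at 156 sites. Another 97 reached it in replicate 2 alone, with a median of 156 in replicate 1, and 24 in replicate 1 alone, with a median of 245 in replicate 2. Just inside the threshold were sites in CPA6, a carboxypeptidase gene (209.9 and 300.3), and UTP20, a factor of ribosomal RNA processing (301 and 96.3). Others just inside lay between genes, on chromosome 1 at 47380284 (66.5 and 300.3), chromosome 5 at 174549316 (13.3 and 302) and chromosome 2 at 123156817 (225 and 302). Just outside lay sites in SLC4A4, a bicarbonate transporter (299 and 251), SPECC1 (298 and 130.3), MBD2, a methyl-CpG binding protein (29.2 and 297), and SASH1 (4.87 and 297), with 1 between genes on chromosome Y (209.95 and 297).

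Each library's score can be read at sites that the other library alone picked out, which the threshold did not fix. Of 187 regions outside facing pairs with 300 or more in replicate 1, 184 had an identical region in replicate 2 (98.4%, 95.4 to 99.7). Their median score there was 664, and 86.4% (80.6 to 91.01) also reached 300. Of 269 such regions in replicate 2, 258 were identical in replicate 1 (95.9%, 92.8 to 97.9), with a median of 350.4 there and 61.6% (55.4 to 67.6) at 300 or more. Regions below 300 recurred at 54.1% from replicate 1 and 39.9% from replicate 2, with median scores of 39.4 and 31.9 in the other library. Most regions that scored high in 1 library thus had a counterpart at the same base in the other. Among the 185 sites below the ceiling in both libraries the rank correlation of the scores was 0.16 (Spearman, over sites of the same 2 libraries and narrowed by the threshold), and 125 lay within a ratio of 2. The threshold and the ceiling chose these sites by both scores, which shapes both values. The agreement of the libraries therefore cannot be read from them.

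Some sites scored far higher in 1 library than in the other. The site in SLC35F4, a transporter gene of the solute carrier family, scored 9.53 in replicate 1 and 345 in replicate 2. That in BPTF, a chromatin remodelling subunit, scored 10.7 and 370, and that in CLEC16A, a regulator of mitophagy, 10.7 and 330. Sites between genes at 49763724 on chromosome 2 (10.8 and 366) and at 174549316 on chromosome 5 (13.3 and 302) completed the 5 largest ratios below the ceiling. The smallest ratio was at C18orf32, where replicate 1 gave 513 and replicate 2 gave 4.72. The next smallest were PDE7B, a phosphodiesterase gene (337 and 55.9), ARHGAP42, a GTPase activator (305 and 54.8), UTP20, and a site at 188069459 on chromosome 1 (562 and 194). The sites in SLC35F4, CLEC16A, C18orf32, ARHGAP42 and UTP20 lay against the strand of the gene, and that in PDE7B lay on it. The strand of BPTF was not known. The site at 74955956 on chromosome 3, between genes and outside the naming rule, stood at the ceiling in replicate 1 and at 14.3 in replicate 2. In all, the replicate 2 score was at least 10 times that of replicate 1 at 9 sites, and at most 0.1 times at 2 sites.

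Few of the sites had another region close by. All but 1 were a single base long, the exception being the 2 bases in the pseudogene LOC100420006. The strands held 135 plus-strand and 142 minus-strand sites. In 276 of the 277 no other region of either library lay within 100 bases, and in 275 none lay within 1000 bases. The lower-scoring identical regions were as isolated, with a same-strand region within 100 bases at 4 of 1901 in replicate 1 and 2 of 1901 in replicate 2, and within 1000 bases at 12 in each. Opposite-strand neighbours were limited by the rule itself, and with facing pairs kept the share with a neighbour within 100 bases was 9.80%. The exceptions lay at 34362380 on chromosome 9 (159.98 and 573), where replicate 1 alone had another plus-strand region 9 bases further on, and at 38520070 on chromosome 12 (152 and 435), where both libraries had another 607 bases away. Within 10 kb on the same strand, 2.89% of sites (1.25 to 5.61) had another region in replicate 1 and 3.97% (2.00 to 6.99) in replicate 2. The lower-scoring identical regions had 2.21% (1.60 to 2.97) and 2.79% (2.10 to 3.63), and these intervals overlap those of the high-scoring sites. Neighbouring high-scoring sites on a chromosome lay a median of 6.24 Mb apart, with 8 of 253 neighbouring pairs within 100 kb.

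Protein-coding gene spans held 146 of the sites (52.7%, 46.6 to 58.7) and long noncoding RNA genes 34 (12.3%, 8.65 to 16.7). Pseudogenes held 5, and 92 lay in no annotated gene (33.2%, 27.7 to 39.1). The lower-scoring identical regions had 47.0% (44.8 to 49.3) in protein-coding spans and 38.6% (36.4 to 40.8) between genes, so the intervals overlap and no difference between the sets was tested. The protein-coding hosts had a median length of 165 kb, and 96 of the 146 were longer than 100 kb. The hosts of the lower-scoring regions had a median of 166 kb, and 587 of the 894 were longer than 100 kb. A base drawn evenly from protein-coding spans lies in a gene with a median length of 172 kb, while the median over all such genes is 24.1 kb. Exons and introns are not separated in the annotation used, and how reads that match several places were treated was not stated.

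Inside protein-coding genes the sites lay on both strands. The strand of the gene was known, and the same for all overlapping protein-coding genes, at 126 of the 146 sites. Of these, 53 lay on the strand of the gene (42.1%, 33.3 to 51.2) and 73 against it (57.9%, 48.8 to 66.7), an interval that includes an even split. The 739 lower-scoring identical regions gave 42.5% on the strand of the gene (38.9 to 46.1), below an even split. Regions found in replicate 1 only gave 49.9% (46.1 to 53.8) and those in replicate 2 only 47.2% (44.3 to 50.1). Plus-strand and minus-strand sites were alike, with 41.0% and 43.1% on the strand of the gene. At the ceiling in both libraries the share was 10 of 21, and below the ceiling in both 37 of 88. In long noncoding genes 13 of 25 sites lay on the strand of the gene. If a gene on the strand of the site is required, 20.2% of the sites remain in a protein-coding gene (15.6 to 25.4) and 74.4% lie in no gene with a known matching strand.

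The 53 sites at the ceiling in both libraries are tied, and those named next are the first in a gene by chromosome name, so they are no ranking. They included both orientations. On the strand of the gene lay the sites in EIF2B3, a translation initiation factor subunit, LHX8, a LIM homeobox factor, DNM3, a dynamin, KIAA1217, SEMA6D, a semaphorin of axon guidance (chromosome 15, 47436929), ZSCAN29, a zinc finger gene (chromosome 15, 43369603), and ZNF804A, also a zinc finger gene (chromosome 2, 184703683). Against it lay those in PAAF1, a proteasome-associated factor (chromosome 11, 73918495), EPB41L1, a membrane skeleton protein (chromosome 20, 36134883), and MICAL3, an actin-regulating oxidoreductase (chromosome 22, 17813557). The strand of SHLD1, a DNA repair factor (chromosome 20, 5758438), and of PLCB1, a phospholipase C gene, was not in the table. The PLCB1 site lay on the minus strand at 8710541 on chromosome 20.

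Of the 53 sites at the ceiling in both libraries, 26 lay in protein-coding genes, 16 in no gene, 9 in long noncoding genes and 2 in pseudogenes. The highest summed score, 815 and 1093, lay in LOC100420006. TTC41P, a pseudogene on chromosome 12 (103899668), stood at the ceiling in both. LOC105376449 on chromosome 10 and LINC00375 on chromosome 13 (85095949) carried theirs on the strand of the gene, and LOC105371777 on chromosome 17 (40913258) and LINC01667 on chromosome 21 (9794757) against it. LINC01989 (chromosome 17, 34170009) had no strand in the table. The other pseudogene sites were in RPL23AP26, a ribosomal protein pseudogene (386 and 341), RP9P (303 and 214) and STAG3L1 (147 and 562).

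No gene held more than 2 sites, and 8 genes held 2. In 6 of them, 1 site lay on the strand of the gene and the other against it. In 1 both lay against it, and in 1 the strand was unknown. Over all sites in protein-coding genes of known strand, 42.1% lay on the strand of the gene. No count of such pairs among lower-scoring regions is set beside the 6, so they are not shown to be particular to these sites. ADCY2, an adenylate cyclase of 434 kb, had a plus-strand site with scores of 439 and 331 and a minus-strand site 49.3 kb away at the ceiling in both libraries. CAMTA1, a calmodulin-binding transcription activator, had 308 and 419 on its own strand and 547 and 708 against it. ASIC2, an acid-sensing ion channel, had 152 and 312 on its strand and 332 and 366 against it. TENM3, a teneurin of neuronal wiring, had 326 and 708 on its strand and 372 and 243 against it. The site against TENM3 also lay in TENM3-AS2, on the strand of that gene and 287 bases after its start. TRPM3, a cation channel, had 304 and 708 on its strand and 321 and 708 against it. DSEL-AS1, a long noncoding gene, had 399 and 369 on its strand and 305 and 309 against it. Both sites of NOS1AP, an adaptor of neuronal nitric oxide synthase, lay against the gene, with 307 and 327 at the first and 217 and 324 at the other. STAU2, a double-stranded RNA binding protein of RNA transport, had plus-strand sites 11.1 kb apart, the closest of all, at the ceiling in both libraries and at 75.5 and 325.

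Along their protein-coding hosts the sites were spread over the whole span. The median position was 47.3% of the way from the annotated start to the end (quartiles 22.2 and 70.5, 128 sites). Sites on the strand of the host had a median of 46.1% (16.02 to 77.5) and sites against it 48.4% (27.7 to 69.8). The lower-scoring identical regions had 51.5% (23.1 to 76.3).

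Short hosts were few. Only 9 sites had a protein-coding host of 15 kb or less, and these were named with their values known. JUNB, an intronless immediate early transcription factor gene of 1.83 kb, carried a site on its own strand at 12792099 on chromosome 19, where HOOK2 lies on the other strand, with scores of 211 and 457. IER2, another immediate early gene on the same chromosome (13153537), carried one against its strand, with 36.7 and 444. MED7, a Mediator subunit, had 345 and 553, CAPNS1, the small calpain subunit, 291 and 390.5, and HNRNPA2B1, an RNA-binding protein of splicing and transport, 91.9 and 314. GPRIN1 had 474 and 626, and the list is completed by C18orf32, ZSCAN29 and LACC1. The sites in MED7, GPRIN1 and ZSCAN29 lay on the strand of the gene, and those in CAPNS1, HNRNPA2B1 and C18orf32 against it. The LACC1 site lay on the strand of LACC1 and against CCDC122, which also spans it. Of the 50 identical regions of chromosome 19 outside facing pairs, 12% were high-scoring sites. The share ran from 5.71% on chromosome 14 to 21.7% on chromosome 20. In all, chromosome 19 held 6 sites. The others were in PPP1R13L (42.4 and 358), an inhibitor of p53 family activity, in LIPE-AS1 (351 and 327), a noncoding gene, and near PLIN3 (156 and 349). The PPP1R13L site lay on the strand of the gene and the LIPE-AS1 site against it.

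Among the 92 sites between genes the nearest gene lay a median of 13.7 kb away, the shortest distance was 0.512 kb, and 38 had a gene within 10 kb. In the lower-scoring set 733 regions lay between genes at a median of 17.0 kb, and 271 of them had a gene within 10 kb. The nearest gene was long noncoding for 42 sites, protein-coding for 29, a pseudogene for 20 and a snoRNA for 1. No such split of the lower-scoring regions is set beside it. A pair named after its values were seen lay near 2 related genes on chromosome 2, 1 site by each. The minus-strand site at 95486618 lay 1864 bases from TRIM43B and was at the ceiling in both libraries, and the plus-strand site at 95590161 lay 1840 bases from TRIM43, with 243 and 318. Sites at 83322211 (511 and 708) and 83373734 (ceiling in both) on chromosome 3 lay 51.5 kb apart on the plus strand with no gene at either.

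Gene groups chosen with earlier results of these data known were set beside all protein-coding genes, with no test. Their shares are a description only. Over all 20050 protein-coding genes, 162 (0.808%) overlapped at least 1 site. Among these, many nested PCDHGA and PCDHGB genes shared 1 site at 141440533 on chromosome 5. A list of 32 long genes was named for neuronal adhesion and guidance, though not all have that role. Their median length was 1276 kb against 24.1 kb over all, and 4 overlapped at least 1 site (12.5%). Among them were IL1RAPL1, a synaptic adhesion receptor (660 and 708, on its strand), MACROD2, an ADP-ribose hydrolase (277 and 349, against), and CTNNA3, a catenin (99.4 and 346, against). Lower-scoring identical regions lay in 24 of the 32, and in 807 of the 20050. Of 24 homeobox and neural transcription factors LHX8 alone held a site (4.17%), and of 14 translation factors EIF2B3 alone (7.14%). None lay in 24 neurodevelopmental disorder genes, 15 pluripotency genes or 12 abundant nuclear and structured RNAs, whose median lengths were 121, 17.6 and 4.53 kb. TFCP2L1, a transcription factor of the pluripotency network outside that list and named after its values were seen, held a site at 121280186 on chromosome 2, against its strand, with 502 and 687.

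Distance to an annotated start was a measure chosen after the values were seen. It could be taken for 264 sites, because the table of starts had none for chromosome 8. The median distance was 31.3 kb, and 22 sites (8.33%, 5.30 to 12.3) lay within 2 kb of a start, 11 on the strand of that transcript and 11 on the other. The lower-scoring identical regions had 6.51% within 2 kb (5.41 to 7.75), regions in replicate 1 only 5.14% (4.12 to 6.33) and regions in replicate 2 only 13.4% (12.2 to 14.7).

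Of the 22 sites near a start, 20 reached 300 in replicate 2 and 11 in replicate 1, and at 11 of the 22 the replicate 2 score was at least 2 times that of replicate 1. The share was 30.8% at 2 to 10 kb (39 sites), 21.3% at 10 to 50 kb (108 sites) and 18.9% beyond 50 kb (95 sites). The interval of the 11 of 22 was 28.2 to 71.8 and included the 30.8% of the next distance. The lower-scoring regions, all below 300 in both libraries by choice, had 25.6%, 31.9%, 26.3% and 26.0% over the same distances. The ratio is built from the scores that chose the sites, so these shares are a description and nothing is read from them. The 11 sites with 300 or more in replicate 1 scored 356 or more there, so that the ceiling kept each of them below a ratio of 2.

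Of the 11, these were also named with their values known. CDC25A, a phosphatase that drives entry into S phase, had 36.8 and 395 at 950 bases after the start, on its strand. SPSB4, a ubiquitin ligase adaptor, had 32.2 and 356 at 252 bases, on the opposite strand. MAMLD1, a Mastermind-like coactivator, had 65.1 and 544, FGD1, a Cdc42 exchange factor, 84.5 and 464, and ZNF385B, a zinc finger gene, 134 and 708. HS3ST1, a heparan sulfate sulfotransferase, had 62.1 and 359 upstream of a start, and SPHK1, sphingosine kinase, 33.7 and 354 upstream. The FGD1 and HS3ST1 sites lay on the strand of the transcript, and those of MAMLD1, ZNF385B and SPHK1 on the opposite strand. The AFAP1 site printed above and those of JUNB, PPP1R13L and chromosome 5 at 174549316 complete the 11. ZSCAN29 and LHX8, also near starts, stood at the ceiling in both libraries, where no ratio can be read.

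**Figure D1:**
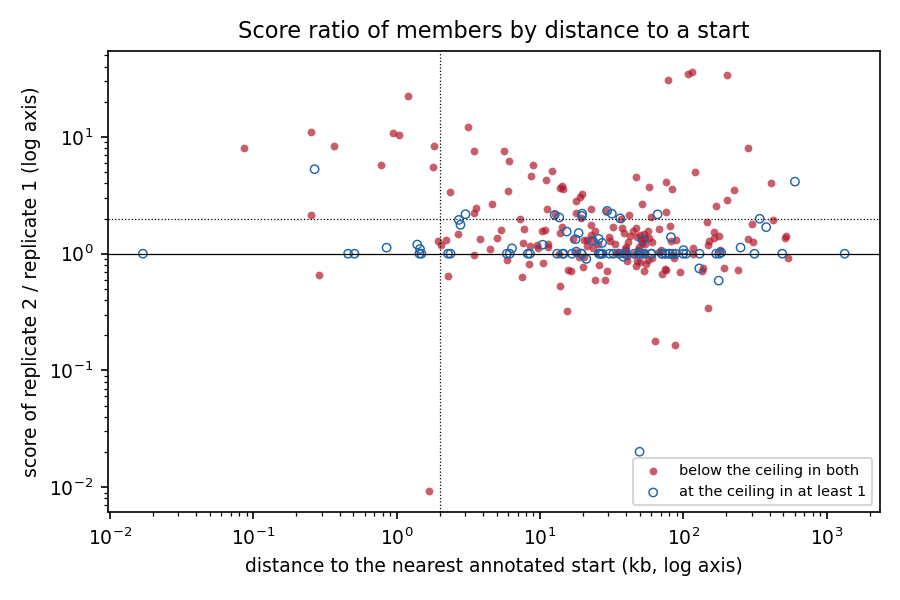
Ratio of the replicate 2 score to the replicate 1 score (y axis, log) against the distance to the nearest annotated transcript start in kb (x axis, log), for 264 high-scoring sites. Red points are below the score ceiling in both libraries, and open blue circles are at it in at least 1, where the ratio is limited by the ceiling. Dotted lines mark a ratio of 2 and a distance of 2 kb. Left of the line 11 of 22 sites lie at or above a ratio of 2. The same scores chose the sites, so the plot is a description.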

How the data were processed

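The 2 deposited files list the crosslink regions of 1 library each, with a score per region. The authors' score is the sum of the scores of the region's bases, as checked to within 0.002. Its scale, the program that called the regions and its threshold were not stated. The submitters' processing notes name hg38 and, without role, STAR 2.5.2, Bowtie2 2.3.5, deepTools, UMI-tools and SAMtools. Read depth is unknown, so intervals (exact Clopper-Pearson, 95%) cover the counting of regions only. The 2 libraries may be technical replicates.

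Regions were matched on chromosome, start, end and strand, facing pairs of either file were left out, and positions were converted to 1-based coordinates. Genes came from a RefSeq table of GRCh38.p14 (59716 genes with spans). Gene strand came from the RefSeq tables of transcript starts and miRNAs, which gave it for 29079 genes, 15843 of 20050 protein-coding ones among them, and for no protein-coding or long noncoding gene of chromosome 8. A site was classed as protein-coding, long noncoding, other or none, in that order, by any overlap on either strand, and the shortest gene of its class was taken as host. No genome sequence was used, so repeats, exons, base composition around all sites and sequence copies were not analysed, although planned. No test between sets was run, because regions of a library are not replicates. The members and lists were chosen with earlier results of these data known. Named sites are the first 20 in a gene by their lower score (ties by chromosome), genes with 2 sites, list members, the 5 nearest each side of the threshold and the 5 largest and smallest score ratios below the ceiling. Exons, also in the rule, could not be applied, and all other sites named were chosen with their values known. Some sites that the rule names are not reported here. Python 3.11.15, pandas 2.3.3 and SciPy 1.17.1 were used, and matching, pairing and strand assignment were tested on simulated data.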

Additional observations from a re-analysis of the deposited data

How the results depend on the processing

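The number of sites followed the threshold, with 448 at a score of 200, 134 at 500 and 156 at 300 in both libraries, and from 180 to 253 when 1 replicate set the threshold alone. The share on the strand of the protein-coding gene kept between 39.6% and 45.0% over these and the pairing and matching alternatives. Shares in protein-coding genes (48.5% to 52.7%) and in no gene (31.4% to 35.6%) also moved within their intervals, except with genes limited to the strand of the site (20.2% and 74.4%). Sites with a neighbour within 100 bases were 0 with 300 in both libraries, 0 to 0.395% with 1 replicate alone, 9.80% with facing pairs kept and 4.17% with pairs left out only when in both files, the last chosen after seeing the data. Near starts, the share at least 2 times higher in replicate 2 was 25% at a score of 500, 0 with 300 in both libraries and 0 to 55.0% with 1 replicate alone, where the ceiling fixes the values of 0. Beyond 10 kb it was 20.2%, and 31.4% at 200, 6.90% with 300 in both and 5.93% to 22.3% with 1 replicate alone. No paired analysis was possible because the libraries form a single group. The score ceiling limits ranks and ratios, and without read counts depth cannot be weighed. Alternatives on repeats, sequence copies and motif windows were not run.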

Other observations

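Outside facing pairs, 14 regions scored 300 or more in 1 library and had no identical region in the other. All 3 of replicate 1 had a same-strand region of replicate 2 within 10 bases, as had 5 of the 11 of replicate 2 with respect to replicate 1. The remainder in replicate 2 included regions at 171600951 on chromosome 1 (score 410), 17470481 on chromosome 19 (409) and 32916558 on chromosome 2 (581), where the nearest same-strand starts of replicate 1 were 274118, 304543 and 49540 bases away. The highest score of the remainder, 1417 at 17154369 on chromosome Y, had a same-strand start of replicate 1 only 407 bases away.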
